A study of Fagopyrum tataricum with 12 samples.

Results

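A set of 43 genes was defined in Tartary buckwheat seedlings by a short-lived rise in transcript level. Each had a mean of at least 5 CPM (counts per 1000000 counted reads of the library) after 2 h in polyethylene glycol, at least 2 times its control mean, and by 8 h a mean of at most 0.5 times the control mean. A further condition kept the 4 h mean under 4 times the control mean. The set holds 43 of the 26750 genes in the table (0.161%). All 43 were among the 22063 genes that passed the filter on low counts (0.195% of these).

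Seedlings of Fagopyrum tataricum, cultivar Dingku1, were grown in water culture to the 2-leaf stage, and RNA of leaf and stem was sequenced. Seedlings in 20% PEG-6000 were sampled after 2, 4 and 8 h, and the control was sampled at 0 h from Hoagland's nutrient solution without PEG. Each of the 4 groups has 3 libraries, 12 in all, and all carry the same cultivar with no other treatment named. PEG-6000 is a polymer that stays outside the root cells and lowers the water potential of the medium. With nutrient-only libraries at 0 h alone, the time spent in PEG and the time of day cannot be told apart. Whether replicate libraries stand for separate plants, pools or repeats of 1 extract is not stated by the labels, and the errors below cover only the spread between libraries. Values with ± are group means with their SD (n = 3 each).

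When water becomes hard to draw, plant cells sense the change at the wall and plasma membrane, and receptor kinases, calcium and mitogen-activated protein (MAP) kinase cascades carry the signal to transcription factors of the WRKY and ERF families. The same machinery serves immunity, where receptor kinases at the cell surface recognise microbes or wall fragments and switch on salicylate and ethylene responses. Transcripts of many such signalling genes are known to build up and decay quickly. Aquaporins, the water channels of the plasma membrane and of membranes inside the cell, and enzymes that loosen the wall are controlled early in water deficit too.

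Between 30468104 and 37395814 reads were counted per library. The median within-group coefficient of variation of the 43 genes was 7.69%. The 22 leaf mesophyll markers summed to 72151 to 77174 CPM at 0 h, 39679 to 42348 at 2 h, 28005 to 28294 at 4 h and 8871 to 9331 at 8 h. The 17 vascular and stem markers summed to 32.2 to 41.2 CPM at 0 h, 36.2 to 41.0 at 2 h, 34.1 to 37.4 at 4 h and 116 to 131 at 8 h, and 9 of them were above 1 CPM at 0 h. The 45 epidermis markers, 31 of them above 1 CPM at 0 h, summed to 1497 to 1558 CPM at 0 h, 1638 to 1727 at 2 h, 1935 to 1954 at 4 h and 2774 to 3002 at 8 h. The 11 seed markers, 4 of them above 1 CPM at 0 h, summed to 36.5 to 44.0 CPM at 0 h, 39.3 to 43.5 at 2 h, 47.8 to 50.3 at 4 h and 181 to 195 at 8 h. Sums of the 15 root markers, of which only 5 were above 1 CPM at 0 h, stayed between 208 and 259 CPM. Those of the 3 guard cell markers stayed between 25.9 and 33.5 CPM. None of the 43 genes is on these lists. The part of cell type shares in the levels given here was not tested, and in a mixed tissue fewer cells of a type and less RNA per cell cannot be told apart. Relative to column totals, TMM scaling (the trimmed mean of M-values) moved the median of all tested genes by -0.15 on the log2 scale for 8 h against 0 h and by -0.22 for 8 h against 4 h. Shifts in the other comparisons were below 0.1.

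The 2 h rise and the 8 h deficit chose these genes, so their sizes are a description. The ratio of the 2 h mean to the 0 h mean had a median of 2.59 and ran from 2.02 to 8.31. At 8 h the ratio to the 0 h mean had a median of 0.382 and ran from 0.149 to 0.494, which is 2.02 to 6.71 times lower. All 43 were called higher at 2 h than at 0 h by the edgeR quasi-likelihood test at a false discovery rate of 0.05, against 31.6% of all tested genes, and all 43 were called lower at 8 h than at 0 h, against 34.5%. Nothing is read from these counts, since the rule used both contrasts. The 3 libraries at 2 h lay above the 3 controls for 43 of 43 genes (34.1% of tested genes), and the 3 libraries at 8 h lay below them for 43 of 43 (28.5%). Family counts below can be set beside those of all 22063 tested genes. Of these, 6970 were called higher and 6984 lower at 2 h than at 0 h. The counts against 0 h were 7745 higher and 8315 lower at 4 h, and 8036 higher and 7605 lower at 8 h.

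Most genes that met the 2 h conditions took another course later. Of the 1437 genes that met both conditions at 2 h, 845 had an 8 h mean of at least 2 times the control mean, 539 lay between the limits, and 53 (3.69%) had a mean of at most 0.5 times the control mean. The limit at 4 h left out 10 of those 53. Close to the limits, the undescribed gene Ft8.3185 entered with 5.45 CPM at 2 h, and SAG12, a senescence-linked cysteine protease, stayed out with 4.35 CPM. GULLO6 entered with a 2 h ratio of 2.02 and the ethylene response factor ERF1A stayed out with 1.98. A leucine-rich repeat kinase described as At2g19230 entered with an 8 h ratio of 0.494 and the cysteine-rich receptor kinase CRK6 stayed out with 0.516. At 4 h the highest ratio inside was 3.22, for Ft8.3183, and the nearest outside was 4.24, for the XTH22 gene Ft6.1557.

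The 4 h libraries show how the genes split on the way down. At 4 h the mean was above the 0 h mean for 25 genes and below it for 18, with a median ratio of 1.29 and a range of 0.123 to 3.22. All 3 libraries at 4 h lay above all 3 controls for 23 genes (32.6% of tested genes) and below them for 11 (42.2%), and the groups overlapped for 9. The highest of the 4 means was at 2 h for 39 genes and at 4 h for 4, and the lowest was at 8 h for 42 genes and at 4 h for 1. Between neighbouring times, 36 of the 43 genes were called lower at 4 h than at 2 h (26.9% of all tested genes), 3 were called higher (26.3%) and 4 had no call. At 8 h, 42 were called lower than at 4 h (31.7% of tested genes), 0 were called higher (33.8%) and 1 had no call. With limma on log2 FPKM, which keeps column totals, 33.1% to 33.3% of tested genes were lower and 19.1% to 19.3% higher at 4 h than at 2 h, and 20.9% to 21.0% were lower and 50.8% to 50.9% higher at 8 h than at 4 h. Of the 43 genes, that fit called 35 to 37 lower at 4 h than at 2 h and 41 lower at 8 h than at 4 h. The median log2 difference of the 43 was -1.07 for 4 h against 2 h and -2.03 for 8 h against 4 h, where the medians over all tested genes were -0.01 and 0.04. These contrasts share group means with the rule, which picked genes high at 2 h and low at 8 h. Its limit at 4 h also left out 10 genes that met the other conditions. The calls and the 4 h split therefore sort the genes by timing and carry no further weight.

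**Figure D1:**
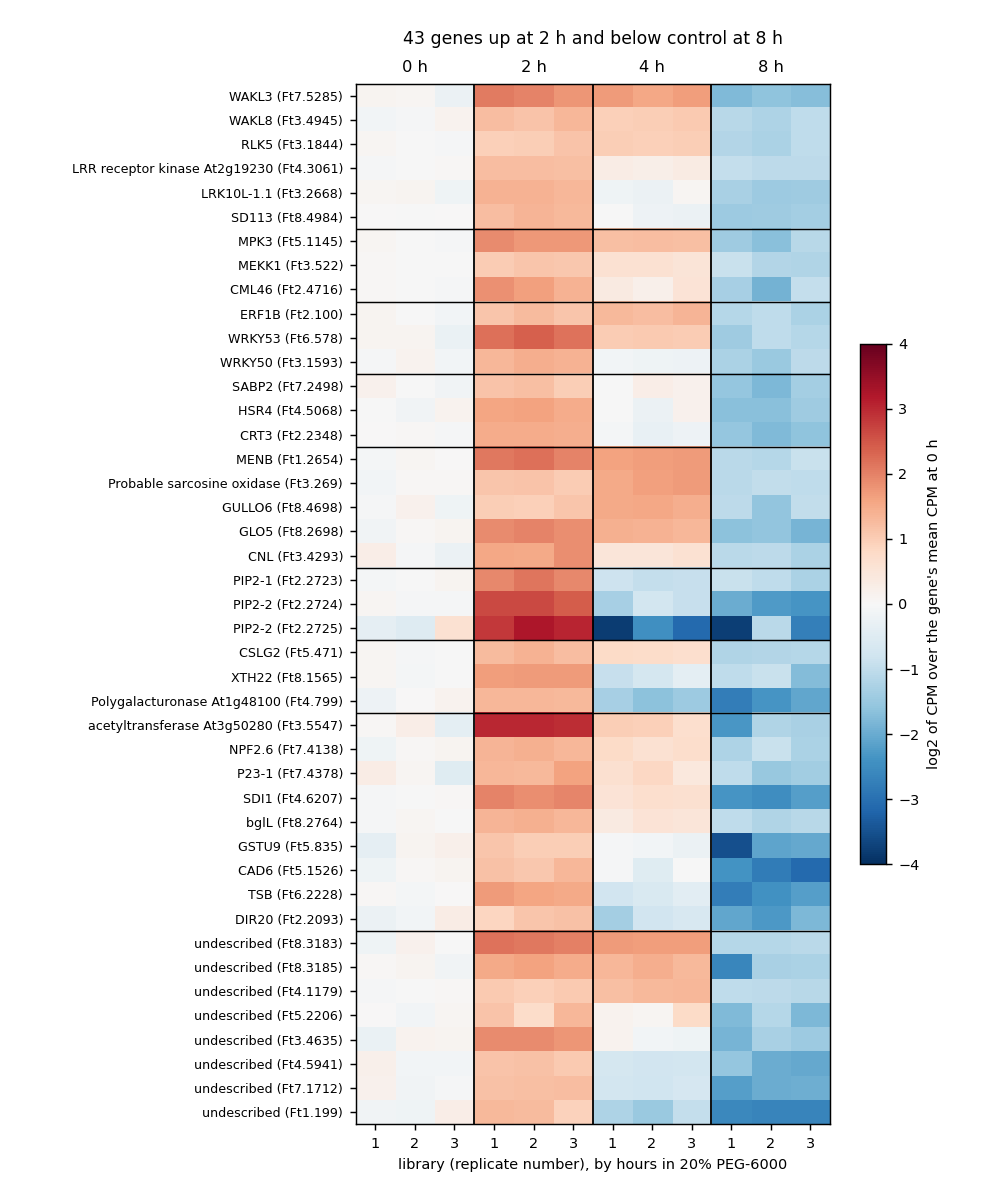
Rows are the 43 genes grouped by role, columns are the 12 libraries in order of time, and the colour gives the log2 ratio of each library's CPM to the mean of the 3 control libraries. The 2 h columns are above the control mean in all 43 genes and the 8 h columns are below it in all 43, while the 4 h columns are mixed.

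Receptor kinases at the cell surface accounted for 6 of the 43 genes. Their 2 h ratios ran from 2.03 to 3.84 and their 8 h ratios from 0.309 to 0.494. RLK5 (Ft3.1844), known in Arabidopsis as HAESA, a receptor for a peptide that triggers organ abscission, had 33.2, 31.3 and 30.6 CPM at 0 h, 61.1, 62.5 and 69.2 at 2 h, 62.7, 61.7 and 63.2 at 4 h and 14, 13.3 and 15.5 at 8 h. Its 2 h and 4 h libraries overlapped, and the log2 difference of 4 h against 2 h was 0.05, SE 0.05, with no call and a turned sign with limma on log2 FPKM (-0.04). The 8 h libraries then all lay below the controls.

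WAKL3 (Ft7.5285) belongs to the wall-associated receptor kinases, which span the plasma membrane and in Arabidopsis bind pectin. It had 6.22, 6.1 and 4.88 CPM at 0 h, 24.1, 22.5 and 19.4 at 2 h, 18.6, 16.7 and 18.3 at 4 h and 1.69, 1.87 and 1.75 at 8 h. Its 3 libraries at 4 h stayed above the 3 controls, and the step to 8 h, -3.55, SE 0.12 on the log2 scale, was the steepest of the 43. Its small difference of 4 h against 2 h, -0.22, SE 0.09, was called lower by edgeR with an adjusted p of 0.0388, and 3 other fits and leaving out any 1 of 4 libraries ended that call. WAKL8 (Ft3.4945), of the same family, had 9.92, 10.3 and 11.8 CPM at 0 h, 24.9, 23.7 and 26.6 at 2 h, 20.9, 21.3 and 22 at 4 h and 4.98, 4.56 and 5.33 at 8 h, and no call between 2 and 4 h (-0.15, SE 0.08). Among the 47 tested wall-associated receptor kinases, a list made after values were seen, 13 were called higher and 14 lower at 2 h than at 0 h, and 10 higher and 25 lower at 8 h than at 0 h.

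In the other 3 receptor kinases the 4 h level was called lower than the 2 h level. A G-type lectin receptor kinase with the deposited symbol SD113 (Ft8.4984) had 22.5, 22.1 and 22.8 CPM at 0 h, 53, 57.4 and 54.8 at 2 h, 22.4, 19.4 and 19.1 at 4 h and 8.27, 8.34 and 8.8 at 8 h. LRK10L-1.1 (Ft3.2668), related to a wheat leaf rust resistance locus, had 12.1, 12.3 and 10.1 CPM at 0 h, 30.0, 29.8 and 28.6 at 2 h, 10.3, 9.77 and 12.1 at 4 h and 4.67, 4.23 and 4.24 at 8 h. In both genes the 4 h libraries overlapped the controls. The kinase described as At2g19230 (Ft4.3061) had 23.8 ± 0.821 CPM at 0 h, 55.4 ± 0.723 at 2 h, 29 ± 0.794 at 4 h and 11.8 ± 0.423 at 8 h, with its 4 h libraries above the controls.

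Inside the cell, MPK3 (Ft5.1145) and MEKK1 (Ft3.522) belong to the MAP kinase cascade, in which MEKK1 stands at the top and MPK3 at the bottom, and both act in immunity and in osmotic stress in Arabidopsis. MPK3 had 13.8, 12.9 and 12.8 CPM at 0 h, 48.3, 44.1 and 43.3 at 2 h, 30.2, 31.1 and 29.9 at 4 h and 4.95, 4.14 and 6.14 at 8 h. All 3 libraries at 4 h were still above the controls, and all 3 at 8 h were below them. MEKK1 followed with 19.9, 19.1 and 19.3 CPM at 0 h, 39.7, 42.2 and 41.1 at 2 h, 29.4, 29.5 and 27.7 at 4 h and 10.5, 8.7 and 8.49 at 8 h. The second gene described as MPK3, Ft3.1465, is not among the 43 and had means of 70.1 ± 2.83 CPM at 0 h, 75.5 ± 1.92 at 2 h, 71 ± 2.21 at 4 h and 55.7 ± 1.26 at 8 h. Of the 49 tested genes of the MAP kinase cascade, a list made after values were seen, 24 were called higher and 11 lower at 2 h than at 0 h, and 20 higher and 16 lower at 8 h than at 0 h.

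CML46 (Ft2.4716), a calmodulin-like protein that would bind calcium, had 6.38, 6.07 and 5.9 CPM at 0 h, 21.5, 19.2 and 16.2 at 2 h, 7.76, 7.02 and 8.92 at 4 h and 2.45, 1.64 and 3.15 at 8 h. The 4 h libraries were just above the controls and the 8 h libraries below them. It is the only one of the 89 tested calcium sensors in the set, a list in which 42 genes were called higher and 21 lower at 2 h than at 0 h, and 30 higher and 30 lower at 8 h than at 0 h. Taking the text-search list of all protein kinases, 8 of the 43 genes (18.6%) are on it, against 4.28% of tested genes, and 358 of its 945 tested genes were called higher and 314 lower at 2 h than at 0 h. At 8 h, 269 of the 945 were called higher and 425 lower than at 0 h.

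**Figure D2:**
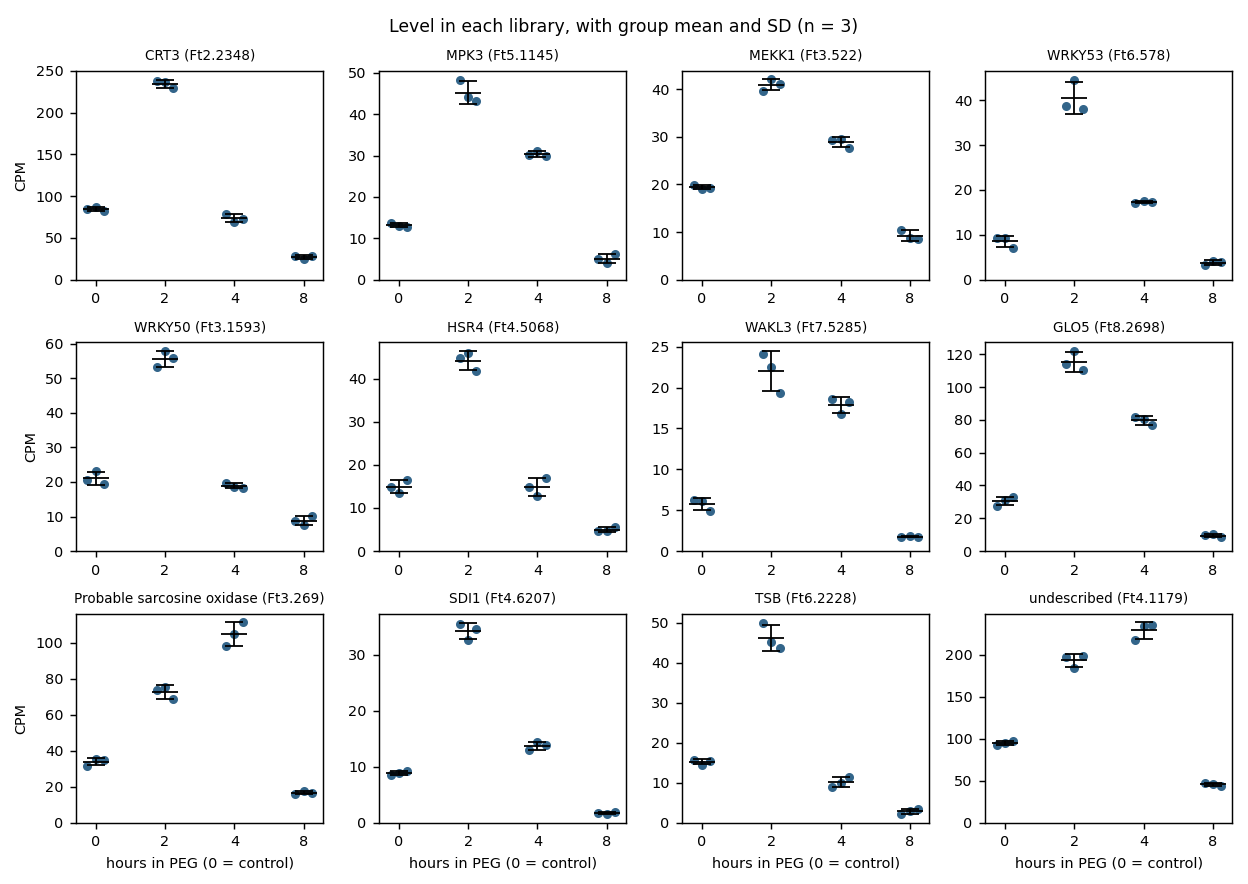
Each panel shows 1 gene, with CPM on the vertical axis from 0 and hours in PEG on the horizontal axis, 0 being the control. Points are the 3 libraries of each group, and the dash with bars is their mean and SD; the 2 h points lie above the control points and the 8 h points below them in every panel.

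Transcription factors made up 3 of the 43. WRKY53 (Ft6.578), which in Arabidopsis promotes leaf senescence and acts in defence, had 9.27, 9.23 and 7.05 CPM at 0 h, 38.8, 44.5 and 38.1 at 2 h, 17.1, 17.5 and 17.3 at 4 h and 3.15, 4.2 and 3.9 at 8 h. Its 2 h mean was 4.75 times the control mean and the 4 h libraries were still above the controls. WRKY50 (Ft3.1593), which in Arabidopsis acts between salicylate and jasmonate signalling, had 20.5, 23.1 and 19.5 CPM at 0 h, 53.2, 57.9 and 55.7 at 2 h, 19.6, 18.6 and 18.3 at 4 h and 8.72, 7.45 and 10.1 at 8 h. Here the 4 h libraries had already come back into the control range or below it. Of the 72 tested WRKY genes, 35 were called higher and 17 lower at 2 h than at 0 h, and 40 higher and 15 lower at 4 h than at 0 h. At 8 h, 23 were called higher and 25 lower than at 0 h, and 8 higher and 42 lower than at 4 h. Among all tested genes, 33.8% were called higher and 31.7% lower at 8 h than at 4 h.

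ERF1B (Ft2.100), an ethylene response factor that in Arabidopsis joins ethylene and jasmonate signals, had 3.76, 3.4 and 3.24 CPM at 0 h, 7.45, 8.37 and 7.4 at 2 h, 8.44, 8.21 and 8.81 at 4 h and 1.58, 1.71 and 1.43 at 8 h. The 2 h and 4 h libraries overlapped (0.22, SE 0.12 for 4 h against 2 h, no call), so it had its fall after 4 h. It is the only one of the 105 tested AP2/ERF genes in the set. None of the 133 tested MYB genes, the 62 NAC genes or the 86 bHLH genes is a member. The 43 are 0.195% of all tested genes, so nothing is read from member counts in lists of this size.

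The gene with the highest level in CPM at 2 h was CRT3 (Ft2.2348), a calreticulin of the endoplasmic reticulum that in Arabidopsis folds the immune receptor EFR. It had 84.5, 86.4 and 81.8 CPM at 0 h, 238, 237 and 229 at 2 h, 79.1, 69.1 and 72.7 at 4 h and 28.8, 24.7 and 27.9 at 8 h. Its libraries at 4 h lay below the controls, and those at 8 h lay lower still. HSR4 (Ft4.5068), an ATPase named for the hypersensitive response, a local cell death at infection sites, had 14.8, 13.6 and 16.6 CPM at 0 h, 44.8, 46 and 41.8 at 2 h, 14.8, 12.8 and 16.9 at 4 h and 4.67, 4.66 and 5.59 at 8 h. At 4 h it was back among the controls, with a ratio of 0.991 to the 0 h mean, and at 8 h its libraries were below them. SABP2 (Ft7.2498), known in tobacco as the esterase that frees salicylic acid from methyl salicylate, had 5.89, 5.16 and 4.72 CPM at 0 h, 11.7, 12.2 and 10.3 at 2 h, 5.15, 6.38 and 5.9 at 4 h and 1.8, 1.51 and 2.06 at 8 h, and its 4 h libraries overlapped the controls. The list of salicylate and disease resistance genes has 227 tested genes, of which 62 were called higher and 75 lower at 2 h than at 0 h, and 57 higher and 88 lower at 8 h than at 0 h.

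Peroxisomal and other oxidative enzymes, 5 genes, were still above the control at 4 h. In all 5 the libraries at 4 h lay above all controls, and the ratio at 4 h had a median of 2.86. GLO5 (Ft8.2698), a peroxisomal oxidase of 2-hydroxy acids that releases hydrogen peroxide, had 27.6, 31.4 and 32.7 CPM at 0 h, 114, 122 and 110.2 at 2 h, 81.9, 80.8 and 76.7 at 4 h and 9.76, 10.3 and 8.34 at 8 h. Its 8 h mean was 0.309 times the control mean. A separate peroxisomal (S)-2-hydroxy-acid oxidase gene, Ft1.2821, is not a member and had means of 3401 ± 88.6 CPM at 0 h, 2124 ± 20.2 at 2 h, 1560.4 ± 27.3 at 4 h and 628 ± 15.5 at 8 h, lower at each later time. Compared per coding length, GLO5 had 104 ± 5.35 FPKM (CPM per kilobase of coding length) at 2 h and 27.7 ± 2.42 at 0 h. The corresponding levels of Ft1.2821 were 1903 ± 18.1 FPKM at 2 h and 3048 ± 79.4 at 0 h (SD, n = 3 each).

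MENB (Ft1.2654), a peroxisomal enzyme in the making of phylloquinone, the quinone of photosystem I, had 15.2, 17 and 16.4 CPM at 0 h, 70.3, 73.9 and 63.9 at 2 h, 49.7, 51.6 and 53.3 at 4 h and 7.71, 7.35 and 8.72 at 8 h. CNL (Ft3.4293), known in petunia as the cinnamate:CoA ligase that opens the peroxisomal route to benzoic acid compounds, had 10.8, 8.66 and 7.64 CPM at 0 h, 26.5, 25.7 and 32.8 at 2 h, 12.6, 12.5 and 13.9 at 4 h and 4.25, 4.33 and 3.76 at 8 h. The 4 h libraries of both were above the controls, by a ratio of means of 3.18 for MENB and 1.44 for CNL. Of the 71 tested genes with a peroxisomal description, a list made after values were seen, 36 were called higher and 16 lower at 2 h than at 0 h, and 34 higher and 19 lower at 8 h than at 0 h.

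Among the 3 genes with a higher call at 4 h than at 2 h, 2 are oxidases. The probable sarcosine oxidase Ft3.269, an enzyme that breaks down N-methylated amino acids and yields hydrogen peroxide, had 31.5, 35.3 and 35 CPM at 0 h, 73.9, 75.5 and 68.6 at 2 h, 98.1, 105 and 111 at 4 h and 16.1, 17.3 and 16.7 at 8 h. All 3 libraries at 4 h were above all 3 at 2 h, with a log2 difference of 0.61, SE 0.05. GULLO6 (Ft8.4698), related to enzymes of ascorbate synthesis, had 4.97, 5.78 and 4.53 CPM at 0 h, 9.97, 9.87 and 11 at 2 h, 14.6, 15 and 14 at 4 h and 2.45, 1.71 and 2.58 at 8 h, and a log2 difference of 0.59, SE 0.11 for 4 h against 2 h. Both then had their lowest values at 8 h, with -2.87, SE 0.06 for the sarcosine oxidase and -2.90, SE 0.13 for GULLO6 against 4 h. All 3 genes lie near the limits of the rule. GULLO6 left the set with TMM-scaled CPM, with DESeq2 size factors, and without 0 h replicate 1 or 3 or 2 h replicate 3. The sarcosine oxidase left it without 0 h replicate 2 or 3 or 8 h replicate 1. The remaining gene, Ft4.1179, left it with DESeq2 size factors.

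The 3 aquaporin genes were already below the control at 4 h. Plasma membrane intrinsic proteins of the PIP2 class are the main water channels of the plasma membrane. The member identifiers, Ft2.2723, Ft2.2724 and Ft2.2725, follow each other on chromosome 2. PIP2-1 (Ft2.2723) had 8.35, 8.74 and 9.6 CPM at 0 h, 33.9, 39.3 and 34 at 2 h, 4.96, 4.63 and 4.67 at 4 h and 4.84, 4.43 and 3.67 at 8 h. PIP2-2 (Ft2.2724) had 5.16, 4.79 and 4.77 CPM at 0 h, 30.5, 30.5 and 26.3 at 2 h, 1.93, 2.97 and 2.61 at 4 h and 1.24, 1.02 and 0.946 at 8 h. In both, the 3 libraries at 4 h lay below the 3 controls.

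The second PIP2-2 gene, Ft2.2725, had the highest 2 h ratio of the set, 8.31. Its levels were low, with 0.595, 0.535 and 1.15 CPM at 0 h, 5.43, 7.2 and 6.32 at 2 h, 0.0545, 0.139 and 0.0881 at 4 h and 0.0563, 0.361 and 0.115 at 8 h. The lowest count in a library was 2 reads, and the within-group coefficient of variation reached 91.2% at 8 h. It is the gene with no call for 8 h against 4 h (0.62, SE 0.67, adjusted p = 0.427 by edgeR, and -0.34 without 8 h replicate 2) and the only one whose lowest mean was at 4 h. For PIP2-1 the lower call at 8 h against 4 h (-0.36, SE 0.12) ended with limma on log2 FPKM and without 8 h replicate 3, where the difference was -0.24.

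Another PIP2-2 gene of this run, Ft2.2721, is not a member, since its 2 h ratio was 1.45. It had means of 465 ± 9.99 CPM at 0 h, 677 ± 12.6 at 2 h, 129.6 ± 2.88 at 4 h and 91.1 ± 5.51 at 8 h, at a far higher level than the members. Outside this run the tested PIP2 genes were lower at 2 h than at 0 h. The 2 h ratio was 0.918 for PIP2-2 (Ft3.3223, 1449 CPM at 0 h). It was 0.529 and 0.242 for the PIP2-1 genes Ft8.374 and Ft8.2218, and 0.524 for PIP2-7 (Ft1.1655). At 8 h Ft8.374 was above its control, with a ratio of 2.12. The coding lengths of the member genes are 849, 861 and 861 bases. No sequences were compared, and if these copies are near-identical, the counting could have split or shared reads between them, so their separate levels are uncertain. Over the 32 tested aquaporins, a list made after values were seen, 10 were called higher and 16 lower at 2 h than at 0 h. At 4 h, 4 were called higher and 25 lower than at 0 h, so most of the family was lower then, and at 8 h 10 were higher and 21 lower than at 0 h. Among all 22063 tested genes, 7745 were called higher and 8315 lower at 4 h than at 0 h. Water channel activity is annotated to 3 of the 43 genes and to 21 tested genes.

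**Figure D3:**
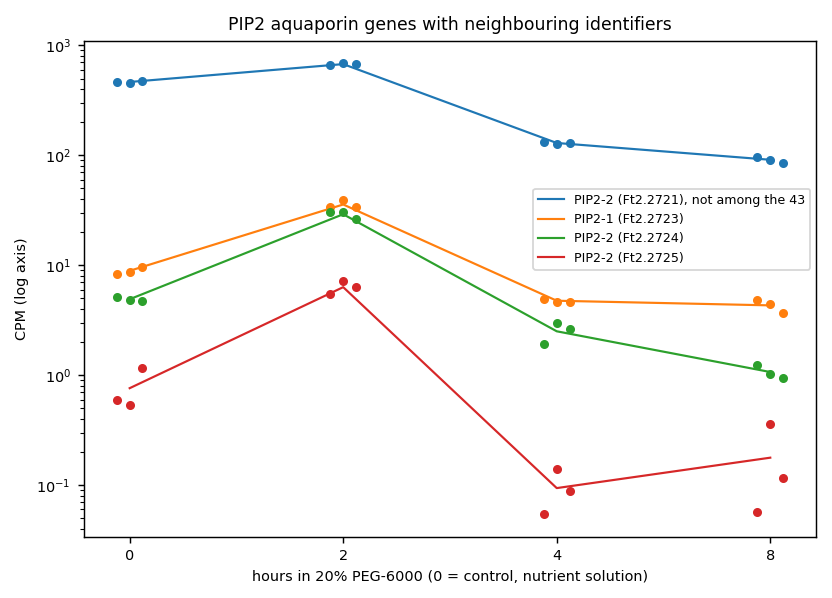
CPM on a log axis for 4 PIP2 aquaporin genes with nearby identifiers against hours in PEG, 0 being the control; points are single libraries and lines join the group means. All 4 were highest at 2 h and below their control libraries at 4 and 8 h, and Ft2.2721, which is not among the 43, had the highest level at every time.

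Enzymes of the cell wall account for 3 genes. XTH22 (Ft8.1565) cuts and rejoins xyloglucan, the polymer that ties cellulose fibrils together, and had 5.35, 4.79 and 5.01 CPM at 0 h, 15.9, 16.5 and 16.4 at 2 h, 2.67, 3.08 and 3.85 at 4 h and 2.48, 2.72 and 1.52 at 8 h. The polygalacturonase described as At1g48100 (Ft4.799), which cleaves pectin, had 8.11, 9.44 and 10.3 CPM at 0 h, 23.4, 23.4 and 23 at 2 h, 3.73, 3 and 3.41 at 4 h and 1.38, 1.81 and 2.21 at 8 h. In both the 4 h libraries lay below the controls, and for the polygalacturonase the ratio at 4 h was 0.364. CSLG2 (Ft5.471), a cellulose synthase-like protein, differed from both: it had 14.3 ± 0.706 CPM at 0 h, 35.1 ± 1.86 at 2 h, 23.5 ± 0.709 at 4 h and 6.34 ± 0.189 at 8 h (SD, n = 3 each), so its libraries at 4 h were above the controls. A second XTH22 gene, Ft6.1557, is not a member, since its 4 h mean was 4.24 times the control mean. Of the 213 tested cell wall genes, 49 were called higher and 104 lower at 2 h than at 0 h, and 48 higher and 117 lower at 8 h than at 0 h.

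Metabolism, transport and folding took in the remaining 9 named genes. SDI1 (Ft4.6207), induced by sulfur deficiency and in Arabidopsis a repressor of glucosinolate synthesis, had 8.57, 8.88 and 9.28 CPM at 0 h, 35.4, 32.6 and 34.6 at 2 h, 13, 14.3 and 13.9 at 4 h and 1.74, 1.61 and 1.92 at 8 h. Its 8 h mean was 0.197 times the control mean. TSB (Ft6.2228), the beta chain of tryptophan synthase that catalyses the last step to tryptophan, had 15.6, 14.5 and 15.4 CPM at 0 h, 50.0, 45.3 and 43.6 at 2 h, 8.99, 9.99 and 11.4 at 4 h and 2.22, 2.86 and 3.33 at 8 h, with all 4 h libraries below the controls. An acetyltransferase described as At3g50280 (Ft3.5547) had the second highest 2 h ratio, 7.98, from a low control level. Its values were 1.03, 1.18 and 0.751 CPM at 0 h, 7.95, 7.93 and 7.7 at 2 h, 1.93, 1.89 and 1.56 at 4 h and 0.197, 0.427 and 0.401 at 8 h. The beta-glucosidase bglL (Ft8.2764) had 25.3 ± 1.15 CPM at 0 h, 65.2 ± 2.13 at 2 h, 34.9 ± 2.09 at 4 h and 11.7 ± 0.753 at 8 h (SD, n = 3 each).

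NPF2.6 (Ft7.4138), a member of the nitrate and peptide transporter family, had 5.81 ± 0.592 CPM at 0 h, 15.1 ± 0.616 at 2 h, 9.42 ± 0.57 at 4 h and 2.69 ± 0.401 at 8 h (SD, n = 3 each). P23-1 (Ft7.4378), a co-chaperone of HSP90, had 2.8 ± 0.725 CPM at 0 h, 7.51 ± 0.963 at 2 h, 4.36 ± 0.591 at 4 h and 1.14 ± 0.209 at 8 h. The 4 h libraries of both were above the controls. CAD6 (Ft5.1526), a probable cinnamyl alcohol dehydrogenase of the lignin branch, had 2.98 ± 0.316 CPM at 0 h, 6.84 ± 0.558 at 2 h, 2.67 ± 0.464 at 4 h and 0.444 ± 0.11 at 8 h, the lowest 8 h ratio of the 43 at 0.149. DIR20 (Ft2.2093), a dirigent protein that would steer the coupling of lignan precursors, had 3.7 ± 0.737 CPM at 0 h, 7.63 ± 0.866 at 2 h, 1.99 ± 0.478 at 4 h and 0.896 ± 0.154 at 8 h. At 4 h the CAD6 libraries overlapped the controls and the DIR20 libraries lay below them. With CNL, these make 3 of the 148 tested phenylpropanoid and flavonoid genes, a list in which 65 were called higher and 43 lower at 2 h than at 0 h, and 62 higher and 55 lower at 8 h than at 0 h.

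GSTU9 (Ft5.835), a glutathione S-transferase that can conjugate glutathione to reactive compounds, had 3.52 ± 0.675 CPM at 0 h, 7.21 ± 0.401 at 2 h, 3.22 ± 0.238 at 4 h and 0.663 ± 0.307 at 8 h (SD, n = 3 each). The genes with neighbouring identifiers had means above their controls at both 2 and 4 h. Ft5.834 had means of 8.57 ± 0.657 CPM at 0 h, 26.6 ± 1.93 at 2 h, 27 ± 1.06 at 4 h and 7.17 ± 0.696 at 8 h. Ft5.836 had means of 12.2 ± 0.129 CPM at 0 h, 137 ± 12.3 at 2 h, 224 ± 8.17 at 4 h and 7.33 ± 1.48 at 8 h. Their 8 h means were 0.838 and 0.601 times the control means, above the limit of 0.5 that GSTU9 met with 0.188. In the list of 57 tested glutathione S-transferases, 34 were called higher and 11 lower at 2 h than at 0 h, and 30 higher and 19 lower at 8 h than at 0 h.

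A set of 8 of the 43 genes (18.6%) has an empty description field in the table, against 21.3% of tested genes. Ft4.1179 was the most abundant per coding length of all 43 at 2 h, with 354 ± 13.6 FPKM at 2 h against 174 ± 4.77 FPKM at 0 h. Its libraries had 92.4, 94.6 and 97.6 CPM at 0 h, 197, 185 and 198 at 2 h, 217, 234 and 236 at 4 h and 46.5, 45.6 and 43.8 at 8 h. It was called higher at 4 h than at 2 h, by 0.33, SE 0.04 on the log2 scale. Its libraries at 2 h and at 4 h did not overlap.

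Ft8.3183 and Ft8.3185 lie close in identifier on chromosome 8 and both are members. Ft8.3183 had 4.89, 6.26 and 5.52 CPM at 0 h, 25.1, 24 and 22.3 at 2 h, 18.1, 17.8 and 17.9 at 4 h and 2.5, 2.53 and 2.61 at 8 h. Ft8.3185 had 1.92, 2.01 and 1.69 CPM at 0 h, 5.34, 5.77 and 5.25 at 2 h, 4.71, 5.08 and 4.64 at 4 h and 0.309, 0.755 and 0.774 at 8 h, with no call between 2 and 4 h. Both kept 4 h libraries above the controls. Ft3.4635 had 3.16 ± 0.443 CPM at 0 h, 11.4 ± 0.579 at 2 h, 3.09 ± 0.371 at 4 h and 1.1 ± 0.208 at 8 h, and its 4 h libraries overlapped the controls, as did those of Ft5.2206, with 15.6 ± 1.1 CPM at 0 h, 33.2 ± 6.5 at 2 h, 20.1 ± 5.64 at 4 h and 5.36 ± 1.41 at 8 h.

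The last 3 undescribed genes were below the control at 4 h. Ft7.1712 had 22.6 ± 2.63 CPM at 0 h, 52.1 ± 1.37 at 2 h, 13.6 ± 0.597 at 4 h and 5.51 ± 0.517 at 8 h. Ft4.5941 had 21.8 ± 2.82 CPM at 0 h, 47.3 ± 2.1 at 2 h, 13.1 ± 0.237 at 4 h and 6.09 ± 1.21 at 8 h. Ft1.199 had 3.04 ± 0.523 CPM at 0 h, 6.84 ± 0.952 at 2 h, 1.32 ± 0.237 at 4 h and 0.495 ± 0.00978 at 8 h (SD, n = 3 each). Coding lengths of the 8 genes ran from 297 to 1389 bases with a median of 571.5, against a median of 1002 over all 43 and of 1125 over tested genes.

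**Figure D4:**
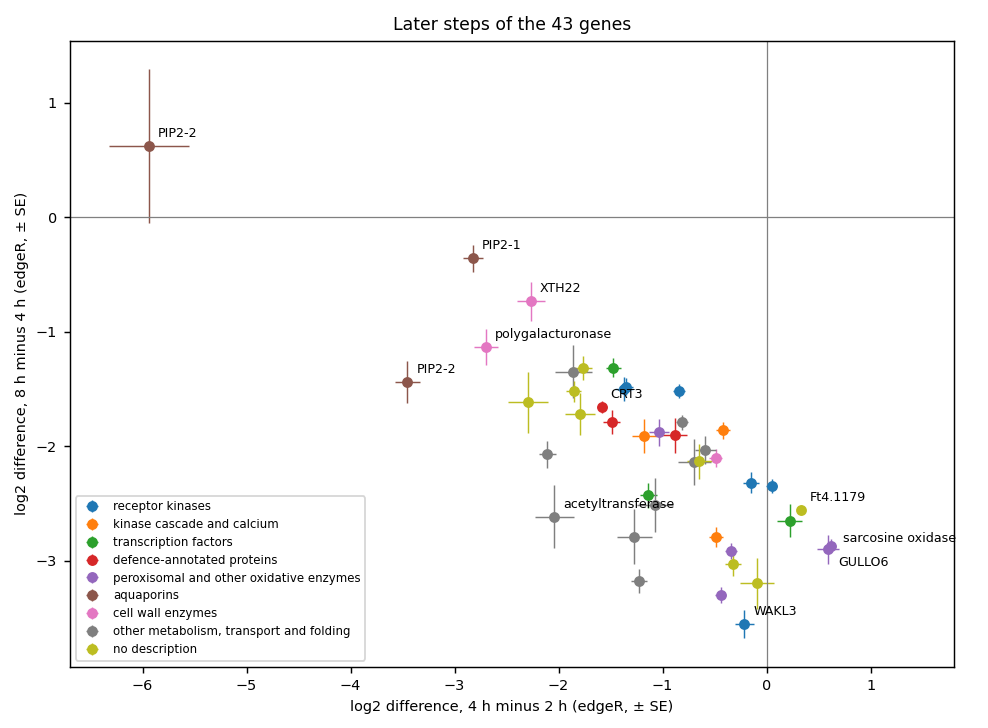
The log2 difference of 4 h minus 2 h (horizontal) and of 8 h minus 4 h (vertical) from edgeR for each of the 43 genes, with standard errors as bars and colour for role. Aquaporins, XTH22 and the polygalacturonase sit at the left, with most of their fall before 4 h, and the sarcosine oxidase, GULLO6 and WAKL3 sit at the lower right, with their fall after 4 h.

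Role and timing can be set side by side as a description. Over all tested genes the 4 h libraries were above the controls in 32.6% and below them in 42.2%. At 4 h the libraries were above the controls in 5 of 5 peroxisomal and oxidative enzymes, in 3 of 3 genes of the kinase cascade and calcium group, in 4 of 6 receptor kinases and in 2 of 3 transcription factors. They were below the controls in 3 of 3 aquaporins, 2 of 3 cell wall enzymes and 1 of 3 defence-annotated proteins. Of the 9 genes of metabolism, transport and folding, 5 were above, 2 below and 2 overlapped. Among the 8 undescribed genes 3 were above, 3 below and 2 overlapped. These roles were assigned with the values known, and no test was made of the groups. Of the oxidative enzymes, MENB, CNL, the sarcosine oxidase and GULLO6 each left the set when 1 or another library was left out. The rule limited the 4 h mean as well, and the 10 genes left out by that limit are not in these counts.

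Annotation and position, which the rule did not use, were also counted. A Gene Ontology term was deposited for 28 of the 43 genes (65.1%) and for 15207 tested genes (68.9%). A term for defence, immunity or response to bacteria or chitin, a choice made after values were seen, was attached to 9 of the 28 (32.1%) and to 1196 of the 15207 (7.86%). The plant-type hypersensitive response was attached to 3 of the 43 and to 81 tested genes. Response to water deprivation was attached to 4 of the 43 and to 271 tested genes, and response to abscisic acid to 3 and to 333. The 43 genes lie on all 8 chromosomes, with 2 to 9 genes each and the most on chromosome 3. Per coding length the 2 h level, for which the rule set a minimum in CPM, ran from 4.92 to 353.6 FPKM with a median of 22.8.

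Of 38 text-search lists of gene families and pathways, 12 held at least 1 of the 43 genes and 26 held none. Lists without a member include the 41 tested abscisic acid genes, the 598 ubiquitin ligases, the 588 genes of ribosome and translation, the 211 cytochrome P450 genes and the 81 photosynthesis genes. With only 0.195% of all tested genes in the set, nothing is read from empty lists of these sizes. Each of the heat shock, sugar and nitrogen lists held 1 gene, P23-1, bglL and NPF2.6.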

How the data were processed

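Whole-number read counts per gene and FPKM for 26750 genes in 12 libraries were deposited by the authors. Per the submitters' processing notes the work used fastp, HISAT2, HTSeq and DESeq2, with no versions, and the genome build is not given in the sources used here. FPKM equalled the deposited count over library total and a length that was a multiple of 3 in every gene, called coding length here. Symbols and descriptions are those deposited. Identifiers are printed without their leading evm.TU.

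The 43 genes were chosen on group means of CPM of column totals. The members, gene lists, role groups and naming rule were chosen with earlier results of these data known. The rule named the 12 genes with the highest 2 h ratio, the 12 with the highest 2 h level, up to 4 per list and the 3 genes at either end of the 4 h ratio, 38 in all. TSB, MEKK1, WAKL8, GULLO6 and Ft8.3185 were added after their values were seen.

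Counts were tested by edgeR 4.0.16 (R 4.3.3, limma 3.58.1) with the quasi-likelihood method and TMM scaling in 1 fit of 12 libraries, after filterByExpr (minimum count 10, minimum total 15). Benjamini-Hochberg adjustment ran over 22063 genes at a false discovery rate of 0.05. Each SE of an edgeR log2 difference was derived as its absolute value over the square root of the quasi-likelihood F statistic. Alternatives were other scalings, DESeq2 1.42.0, limma on log2 FPKM with 1 or 0.1 added, other filters, thresholds and a replicate block, and leaving out each library. The code was tested on simulated data. Figures used matplotlib 3.10.9, and tables pandas 2.3.3 with numpy 2.4.6 on Python 3.11.15.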

Additional observations from a re-analysis of the deposited data

How the results depend on the processing

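Under the same rule the set held 48 genes with TMM-scaled CPM (42 shared with the 43), 47 with DESeq2 size factors (40 shared), 43 with FPKM and 43 with medians (40 shared). Ratios of FPKM equal those of CPM by construction, so nothing is read from that setting. GULLO6 was lost with TMM-scaled CPM, and GULLO6, RLK5 and Ft4.1179 with DESeq2 size factors. Medians lost PIP2-1, RLK5 and GSTU9. It held 127 genes with looser folds (1.5 times above at 2 h and 1.5 times below at 8 h), 6 with stricter folds (3 times at both), 71 with a minimum of 1 CPM, 34 with a minimum of 10 CPM and 53 with no limit at 4 h. The 6 were the PIP2-2 members Ft2.2724 and Ft2.2725, SDI1, TSB, WAKL3 and GLO5. Leaving out 1 library gave 40 to 47 genes and lost up to 5 of the 43 at a time. Members lost in this way were GULLO6, the sarcosine oxidase, MENB, CNL, RLK5, the At2g19230 kinase, PIP2-1, XTH22, DIR20, GSTU9 and Ft5.2206. A condition of no overlap between libraries, added after the data were seen, kept 43. It used the same 0, 2 and 8 h values as the rule, so nothing is read from it. The counts called lower at 4 h than at 2 h (28 to 37 over all alternatives) and lower at 8 h than at 4 h (34 to 42) stayed within 1.5 times of the count given, the lowest under a stricter filter that tested 34 of the 43 genes. In the same alternatives 22.2% to 33.3% of all tested genes were lower at 4 h than at 2 h, and 20.9% to 35.0% lower at 8 h than at 4 h. The sign turned in 2 differences without a call: RLK5 at 4 h against 2 h with limma on log2 FPKM (-0.035 with 1 added, -0.037 with 0.1), and Ft2.2725 at 8 h against 4 h without 8 h replicate 2 (-0.34, against up to 1.05 without another library). Calls changed in 3 genes: PIP2-1 lost its lower call at 8 h against 4 h with limma on log2 FPKM (-0.12 with 1 added, -0.15 with 0.1) and without 8 h replicate 3 (-0.24). WAKL3 lost its lower call at 4 h against 2 h with DESeq2 size factors, DESeq2, limma with 0.1 added, and without 2 h replicate 1 or 2 or 4 h replicate 2 or 3 (-0.14 to -0.29), and WAKL8 gained one with limma and 1 added (-0.21). The causes were not tested. With replicate number as a block, 36 were lower and 3 higher at 4 h than at 2 h, and 42 lower and 0 higher at 8 h than at 4 h, as without it. Deviations of same-numbered libraries correlated at -0.036 to 0.028 over 18 pairs, so the numbers were not taken to pair the libraries. Counting error limits the least abundant values, down to 2 reads in a library for Ft2.2725.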
